A study of Mus musculus with 9 samples.

Results

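The voltage-gated sodium and calcium channel genes are the genes for the pore-forming and accessory subunits that carry fast sodium current and calcium entry in excitable cells. They were taken by symbol, as every probe set with exactly 1 gene symbol whose symbol begins with Cacna, Cacnb or Cacng or reads Scn, a number and a or b. Of 19935 genes with such a probe set, 35 met this rule, through 51 probe sets. Where a gene had several probe sets the brightest on average was used, and no measured difference between groups entered that choice of probe set. The rule itself was set with earlier results of these data known. Of the 35 genes 32 passed the filter on low values and were tested. The 3 below it were Scn10a and Scn11a, sodium channels of sensory neurons, and Cacna1f, a calcium channel of the retina. Their means over the 9 arrays were log2 5.88, 5.55 and 5.60, against a filter at 5.89.

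A sodium channel is a single large alpha subunit, which opens on depolarization and carries the upstroke of the action potential, with beta subunits that adjust its gating and its place in the membrane. A calcium channel of the high-voltage-activated kind joins a pore-forming alpha1 subunit with a beta subunit and an alpha2delta subunit, which bring it to the surface and set its gating. Of the gamma family, the first member belongs to the channel of skeletal muscle, while several others are better known as TARPs, partners of AMPA-type glutamate receptors. In the striatum these channels set the firing of the projection neurons, the activity of the sparse interneurons and transmitter release from the cortical, thalamic and dopamine axons that end there.

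Total RNA from the striatum of mice was hybridised to 9 single-colour arrays, with 3 in each of 3 groups. The acute group received MPTP, a toxin whose metabolite is taken up by dopamine neurons, as free base MPTP HCl into the peritoneum, at 20 mg/kg in 4 injections 2 h apart, and was sampled 1 week later. The chronic group received a daily 4 mg/kg over 20 days, with sampling at 8 weeks, so that both regimens came to 80 mg/kg. Controls were given saline on the acute schedule (4 injections at intervals of 2 h, sampling at 1 week), and regimen and time differ together in any comparison with the chronic group. Strain, age and sex are not given in the sources used here, nor whether the arrays of a group come from different animals. The p-values therefore reflect variation among these arrays, part of which may be technical. The values are log2 intensities, in which a difference of 1 is a doubling. A level can be compared between arrays for a given gene, but not between genes, because probe sets differ in brightness.

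Markers of neighbouring tissue varied from array to array. Tbr1, which marks neurons of the cortex, lay between 9.12 and 9.89 on control 1, acute 1 and acute 2 and between 5.69 and 7.27 on the other arrays. Ttr, the main product of choroid plexus, lay at 12.56 and 13.37 on control 3 and acute 3 and between 6.19 and 10.85 elsewhere, and Slc17a6, a glutamate transporter of thalamus, was likewise highest on these 2 arrays, at 10.59 and 9.43. Genes of striatal projection neurons were lowest on control 1 and control 3: the mean of their list, taken as the deviation of each gene from its mean over the 9 arrays, was -0.42 and -0.51 there, against 0.11 on control 2, -0.0081 to 0.078 on the acute arrays and 0.19 to 0.31 on the chronic arrays. Ppp1r1b, the dopamine-regulated phosphatase inhibitor that marks these neurons, lay at 11.50 on control 1 and 11.44 on control 3. On the other arrays it lay between 12.11 and 12.31. In tissue of mixed cells, fewer cells of a type and less RNA per cell cannot be told apart.

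Within groups the channel genes spread more widely than most genes. Their median SD within groups was 0.22 on the log2 scale, against 0.16 over the 14880 genes tested, and 24 of 32 lay above that median. The median range over the 9 arrays was 0.68, against 0.49. Chronic 2 was the highest array for 11 of the 32 genes and chronic 3 for 9, while control 1 was the lowest for 9 and control 3 for 6.

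**Figure D1:**
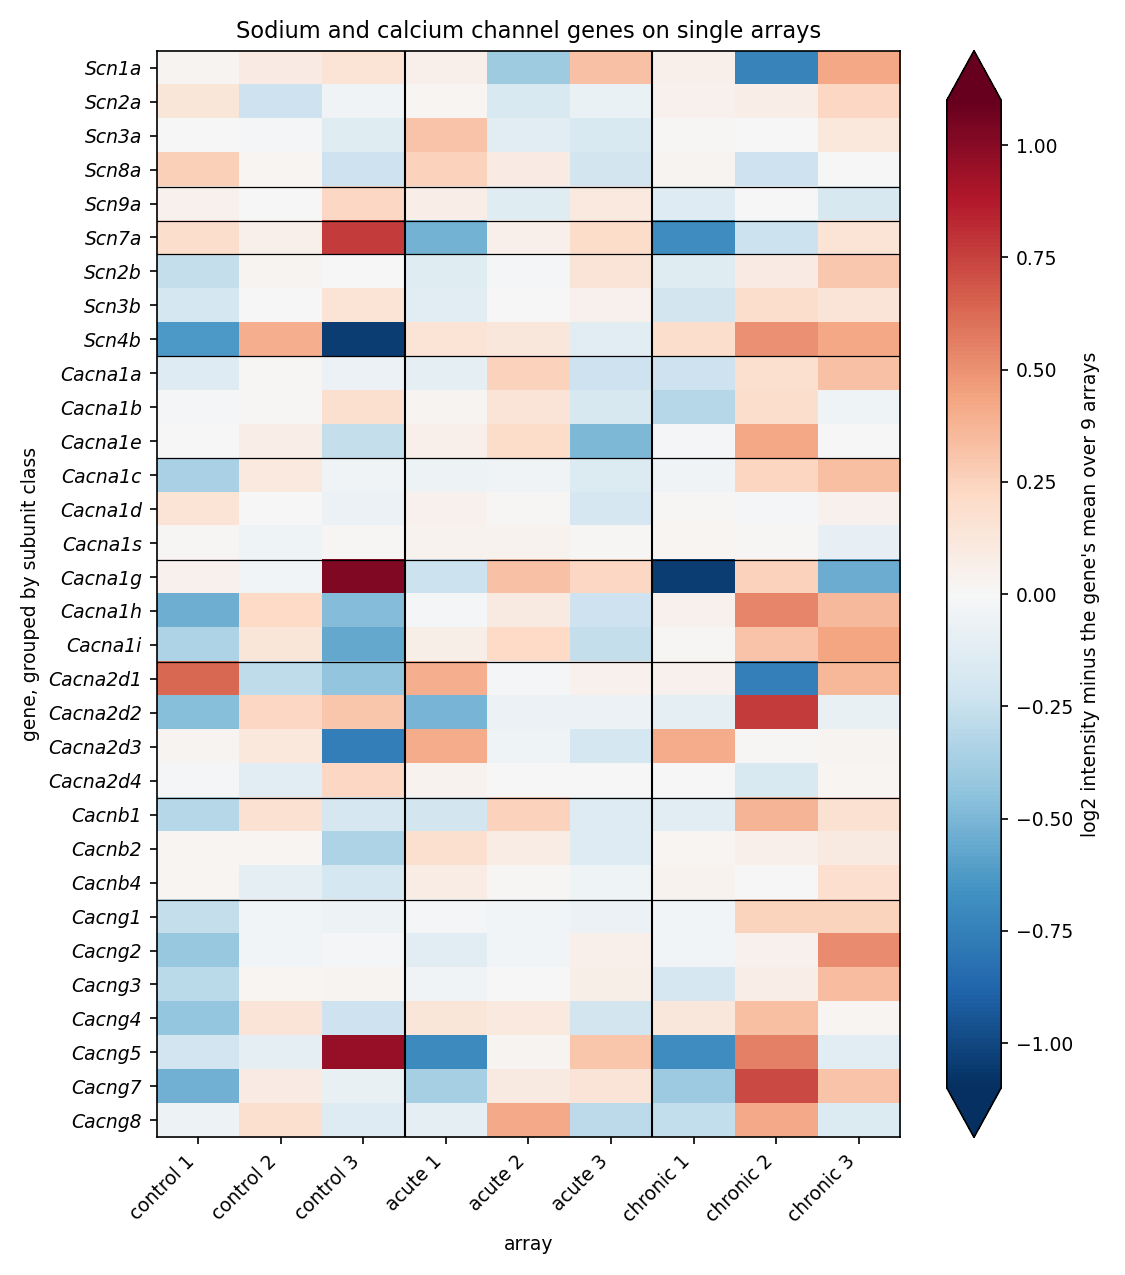
Log2 intensity of the 32 tested channel genes on the 9 arrays, each as the difference from the gene's mean over all arrays (red above, blue below, colours saturate at 1.1), with genes in rows by subunit class and arrays in columns by group. Scn4b was lowest on control 1 and control 3, Cacna1g, Cacng5 and Scn7a were highest on control 3.

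At 1 week after acute MPTP the median absolute log2 difference of the channel genes from the controls was 0.0844, against 0.0665 over all genes. In limma 0 of 32 passed the threshold of 0.05 on the adjusted p, and 0 had an unadjusted p under 0.05, where 0% and 0.851% of all probe sets tested did. The genes furthest apart were Scn4b, a sodium channel beta subunit abundant in striatal projection neurons, at 1.39-fold above the controls, and Scn7a, which codes for the sodium-sensing channel Nax, at 1.34-fold below. Both rested on single arrays: the log2 difference of Scn4b, 0.48, was 0.17 without control 3 and 0.89 without control 2, and that of Scn7a, -0.43, was -0.21 without acute 1 and -0.57 without acute 3. Of the 32 log2 differences 20 were above 0, with a median of 0.039 and a range from -0.43 to 0.48, beside a median of 0.005 over all genes. All 3 calcium channel beta subunits and 6 of 7 gamma family genes lay above the controls on average, at medians of 0.10 and 0.089, and the 4 brain sodium channel alpha subunits ran from -0.094 to 0.051. Groups overlapped in all 32 genes, while 3.56% of all probe sets had groups that did not. Without control 2 the count at an unadjusted p under 0.05 was 4 (Cacna1h, Cacna1i, Cacng4 and Scn4b), at 2.48% of all probe sets, with 0 past the adjusted threshold. With the replicate number as a block it was 1 (Scn7a, adjusted p = 0.98), at 4.21% of all probe sets, and with the block and the tissue covariates together 3 (Cacna2d1, Scn1a and Scn7a), at 7.01%.

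At 8 weeks after chronic MPTP the differences from the 1-week controls were wider, though again 0 of 32 genes passed the adjusted threshold in limma, as did 0% of all probe sets. The 4 genes with an unadjusted p under 0.05, all above the controls, were Scn4b, the low-voltage-activated T-type calcium channels Cacna1h and Cacna1i, and Cacng1. That is 12.5% of the channel genes, where 5.51% of all probe sets reached the same p and 2.85% did so above the controls. With the replicate number as a block the count was 11, or 34.4%, where 13.0% of all probe sets reached it, and the smallest adjusted p among the channel genes was 0.255. Those 11 include Cacna1g and Scn7a, which lay below the controls and are not among the 4. The median log2 difference of the 32 genes was 0.16, against -0.01 over all genes, and 21 of the 32 were above 0 (65.6%, against 46.7% of all genes). Chronic and control groups overlapped in all 32 genes, while 6.55% of all probe sets had groups that did not. The count of 4 rested on single arrays. It was 8 without control 2, Cacna1g and Scn7a among them (7.48% of all probe sets, smallest adjusted p among the channel genes 0.0591). It was 7 without chronic 1 (7.87%). It was 1, or 3.12% of the channel genes, without control 1 (Cacna1g, 4.38% of all probe sets) or control 3 (Cacng1, 2.85%). It was likewise 1 without chronic 2 (Cacna1g, 6.91%) or chronic 3 (Scn7a, 3.58%), and all these shares were near or below those of all probe sets. It was 0 on leaving out control 1, acute 1 and acute 2 (high in cortex genes), where 3.27% of all probe sets reached that p and the log2 differences were 0.70 for Scn4b, 0.47 for Cacna1i, 0.44 for Cacna1h and 0.20 for Cacng1. It was also 0 on leaving out control 3 and acute 3 (high in choroid plexus genes), where 2.41% of all probe sets reached it and the same genes stood at 0.49, 0.35, 0.47 and 0.30. With the means of the cortex list and of the thalamus and septum list as covariates it was 0 (1.55% of all probe sets), and 24 of 32 genes were above 0 with a median of 0.13. With these covariates and the replicate block together it was 6 (Cacna2d1, Cacna2d2, Cacng5, Cacng7, Scn1a and Scn7a), or 18.8% against 9.24% of all probe sets, with a smallest adjusted p of 0.482. That fit leaves few residual degrees of freedom.

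Tissue markers differed in the same comparison. All 13 tested projection neuron genes lay higher in the chronic group (median 0.52), 11 of 13 cortex genes lay lower (-0.51) and 13 of 14 genes of thalamus and septum lay lower (-0.33). The mean of the cortex list ran from -0.44 to 1.06 in the controls and from -0.69 to -0.33 in the chronic group, and that of thalamus and septum from -0.25 to 1.16 and from -0.53 to 0.039. Of the genes listed, 13 of 15, 13 of 14 and 14 of 14 were on the array, and all of those passed the filter on low values. Their part in the channel differences was not tested beyond the fits with covariates and without arrays given here.

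**Figure D2:**
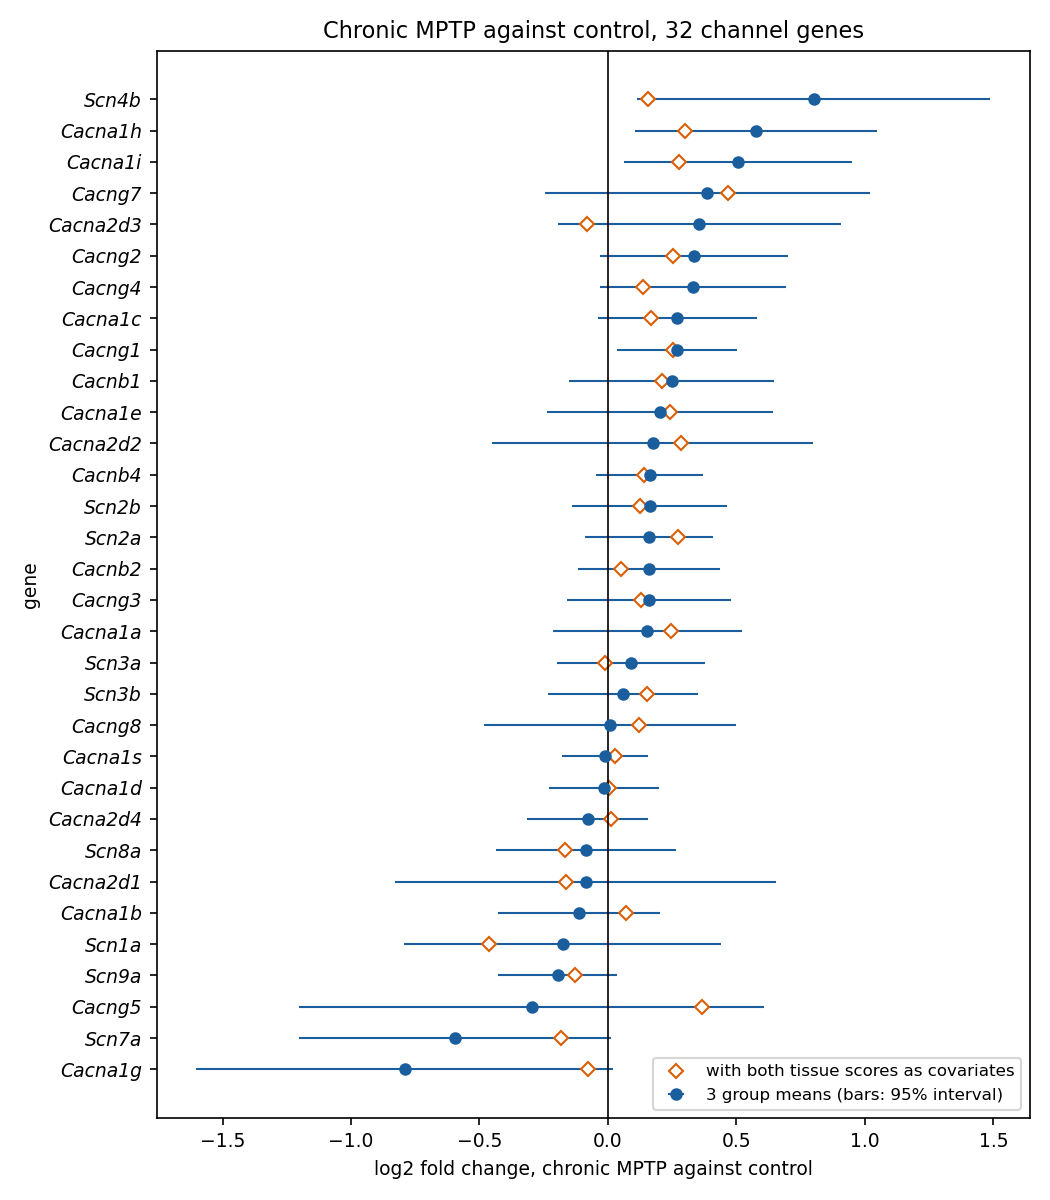
Log2 fold change of each of the 32 tested channel genes, chronic MPTP against control, from the fit with a mean per group (filled points, bars are 95% intervals) and with the cortex and the thalamus and septum scores as covariates (open diamonds). The intervals of Scn4b, Cacna1h, Cacna1i and Cacng1 lie above 0, and the diamonds of Scn4b (0.15) and Cacna1g (-0.079) lie nearer 0 than their points (0.80 and -0.79). The 95% intervals of these diamonds, not drawn, are wide, at -0.55 to 0.86 for Scn4b and -0.77 to 0.61 for Cacna1g.

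The sodium channel beta subunits are small membrane proteins with an immunoglobulin fold. Scn4b lay at 11.20, 12.24 and 10.79 on control 1, 2 and 3, at 11.99, 11.97 and 11.72 on the acute arrays and at 12.03, 12.34 and 12.26 on the chronic arrays. Control 1 and control 3 were low, whereas control 2 stood above all acute arrays and above chronic 1, so the chronic and control groups overlapped. Group means were 11.41 ± 0.75 (SD, n = 3), 11.89 ± 0.15 and 12.21 ± 0.16. The chronic group was 0.80 ± 0.30 (SE) above the controls on the log2 scale, or 1.74-fold (95% interval 0.11 to 1.49, unadjusted p = 0.0268 and adjusted p = 0.898 in limma). The value was 1.21 without control 2, 0.49 without control 3 and 0.15 ± 0.31 with the tissue covariates (95% interval -0.55 to 0.86). Control 1 and control 3 are also the arrays on which the projection neuron list was lowest. The acute arrays all lay below the chronic ones, by 0.32 ± 0.30 on average (adjusted p = 0.891), where in 3.61% of all probe sets every chronic array lay above every acute one.

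Scn2b and Scn3b were the steadier of the beta subunits, with ranges over the 9 arrays of 0.55 and 0.39 against 1.55 for Scn4b, and neither passed in any comparison. Scn2b and Scn4b are neighbours, with 0 protein-coding genes between them in the RefSeq table of assembly GRCm38.p6. The windows around their annotated starts, from 250 bases before to 50 after, are shown because these adjacent genes of related function differed in how they varied over the arrays. Both are given on the plus strand from RefSeq, build GRCm38.p6, with each CG dinucleotide in capitals.
Scn2b, chr9:45117626-45117925: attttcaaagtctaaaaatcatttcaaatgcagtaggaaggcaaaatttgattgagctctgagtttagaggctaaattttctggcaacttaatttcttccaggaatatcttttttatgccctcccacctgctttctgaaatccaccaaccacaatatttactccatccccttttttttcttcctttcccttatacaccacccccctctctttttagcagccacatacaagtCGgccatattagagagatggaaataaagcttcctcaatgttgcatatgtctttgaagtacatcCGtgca
Scn4b, chr9:45138374-45138673: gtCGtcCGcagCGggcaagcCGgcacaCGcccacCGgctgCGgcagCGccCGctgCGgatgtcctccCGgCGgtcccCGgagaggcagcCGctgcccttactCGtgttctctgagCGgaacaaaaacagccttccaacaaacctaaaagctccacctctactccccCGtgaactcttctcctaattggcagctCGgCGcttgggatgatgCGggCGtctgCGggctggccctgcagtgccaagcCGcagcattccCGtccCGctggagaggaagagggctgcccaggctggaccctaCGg
The Scn4b window holds 26 CG dinucleotides in 300 bases, the Scn2b window 2, and the median over all 32851 RefSeq windows is 7. Their GC content was 66.3% and 38.3%, against a median of 52.7%. Both strands were searched for the letters TATAAA, found in 13.6% of all windows and in 2 of the 37 windows that the table gives for 27 of the channel genes. The letters GGGCGG stood in 35.7% of all windows and in 14 of the 37. The letters TGACGTCA stood in 1.79% and in 0 of the 37. Neither window shown held any of these. A match of letters describes the window only.

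Among the pore-forming sodium channels of the brain, Scn1a is best known from fast-spiking interneurons, Scn8a from axon initial segments and nodes of Ranvier, Scn3a from the embryonic brain and Scn2a from the axons of projection neurons. None of the 4 stood apart from the controls. Scn1a lay at 8.83, 8.88 and 8.94 on the control arrays, at 8.85, 8.41 and 9.11 on the acute arrays and at 8.85, 8.06 and 9.21 on the chronic arrays. Its controls were close together while the treated groups spread on both sides of them (SD 0.059, 0.36 and 0.59), and acute 2 and chronic 2 were the low arrays. The log2 difference from control was -0.094 ± 0.27 in the acute and -0.18 ± 0.27 in the chronic group (adjusted p = 1 and adjusted p = 0.977 in limma), and without chronic 2 the chronic difference turned to 0.15. With the tissue covariates it was -0.46 ± 0.36, and -0.66 with the block added (adjusted p = 0.482), a fit that leaves few residual degrees of freedom.

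Scn8a lay at 10.41, 10.17 and 9.92 in the controls, at 10.40, 10.24 and 9.94 in the acute group and at 10.18, 9.92 and 10.15 in the chronic group. The ranges of the 3 groups overlapped, and the acute and control arrays ran in parallel by replicate number. Its differences from control were 0.025 ± 0.16 and -0.085 ± 0.16.

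Scn2a was measured by 14 probe sets with 1 symbol. The brightest lay at 12.67, 12.31 and 12.50 in the controls, at 12.57, 12.38 and 12.47 in the acute group and at 12.59, 12.61 and 12.77 in the chronic group. All chronic arrays were above all acute arrays on it (0.19 ± 0.11, adjusted p = 0.877), while the controls overlapped both. Most of the other probe sets had the opposite sign chronic against control, where 4 of 14 lay above 0 and 10 below, from -0.29 to 0.16 with a median of -0.079. Acute against control, 5 lay above and 9 below, from -0.28 to 0.17. For chronic against acute the split was 7 to 7. No probe set passed the adjusted threshold in limma, and 1 had an unadjusted p under 0.05 in each of the comparisons with the chronic group. The sign for Scn2a differed between its probe sets. Cacng2, a TARP, had 2 probe sets, and both lay above the controls on average in the chronic group. The brighter, which was used, had an unadjusted p in limma of 0.0691 chronic against control and 0.227 chronic against acute. For the other these were 0.0168 and 0.0262, at differences of 0.50 and 0.45 (adjusted p = 0.876 and 0.877). Counts of channel genes at an unadjusted p under 0.05 therefore depend on the choice of probe set for this gene.

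**Figure D3:**
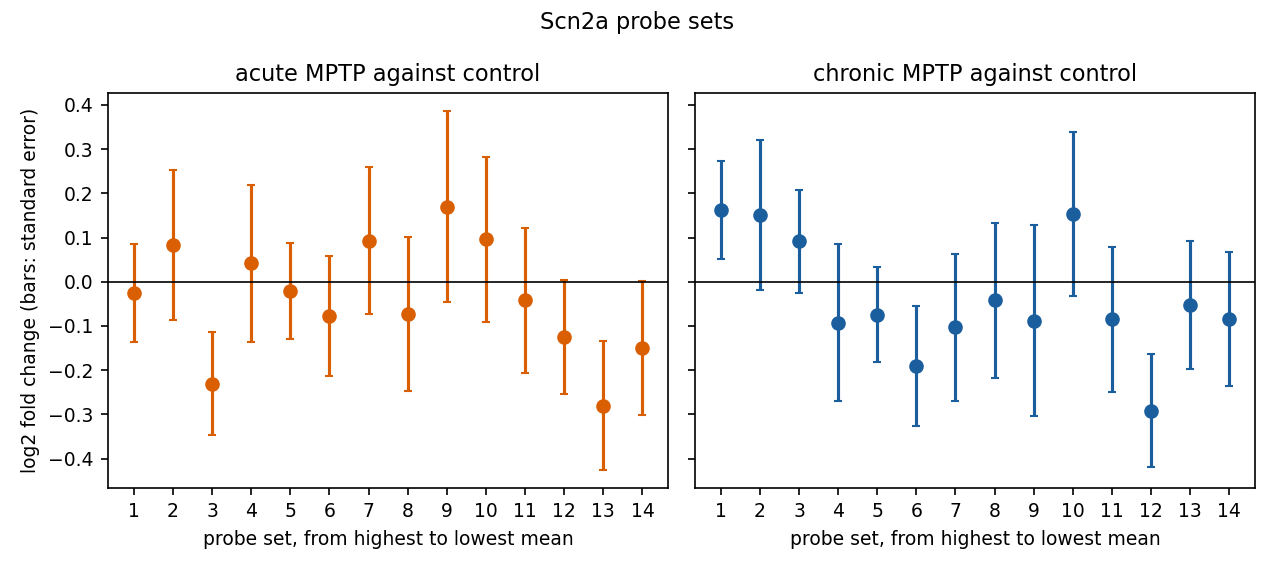
Log2 fold change with its standard error for the 14 probe sets of Scn2a, ordered from the highest to the lowest mean intensity, for acute MPTP (left) and chronic MPTP (right) against control. The chronic differences run from -0.29 to 0.16, and the 3 brightest probe sets lie above 0 while most of the others lie below.

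Scn7a, which in glia of the sensory circumventricular organs reports extracellular sodium, lay at 6.45, 6.31 and 7.03 in the controls, at 5.74, 6.31 and 6.46 in the acute group and at 5.57, 6.02 and 6.41 in the chronic group. The third array of each group was its highest, and the first of each treated group its lowest. Its signal was near the filter at 5.89, which chronic 1 and acute 1 fell short of. The chronic group was -0.60 ± 0.27 from the controls (adjusted p = 0.91 in limma, adjusted p = 0.255 with the replicate block), and -0.18 ± 0.23 with the tissue covariates. Slc17a6 and Ttr were also highest on control 3 and acute 3. Scn9a, a channel of peripheral neurons next to Scn7a and Scn1a in the genome, ranged over 0.40 on the 9 arrays.

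The T-type calcium channels open near resting potential and carry burst firing, and they lay on both sides of the controls. Cacna1h lay at 8.66, 9.42 and 8.72 in the controls, at 9.18, 9.30 and 8.97 in the acute group and at 9.24, 9.73 and 9.55 in the chronic group. Control 2 stood with the treated arrays, and the other controls lay below every treated array. Chronic against control the difference was 0.58 ± 0.21, or 1.49-fold (adjusted p = 0.876), with 0.44 without control 1 and 0.82 without control 2. It was 0.30 ± 0.29 with the tissue covariates.

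Cacna1i, known for its place in the reticular thalamus and also found in striatum, lay at 9.35, 9.81 and 9.12 in the controls, at 9.74, 9.90 and 9.42 in the acute group and at 9.69, 9.99 and 10.11 in the chronic group. Its control arrays kept the order of Scn4b, with control 2 high and control 3 lowest. The chronic difference was 0.51 ± 0.20, or 1.42-fold (adjusted p = 0.898), and 0.28 ± 0.26 with the tissue covariates.

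Cacna1g, the T-type channel of thalamic relay neurons, lay at 8.49, 8.41 and 9.46 in the controls, at 8.21, 8.77 and 8.67 in the acute group and at 7.40, 8.70 and 7.90 in the chronic group. Control 3 stood high and chronic 1 low, so that its range of 2.06 was the widest of the 32 genes. The chronic difference was -0.79 ± 0.36, or 1.73-fold lower (95% interval -1.60 to 0.021, adjusted p = 0.91). It was -0.45 without control 3, -1.14 without chronic 2 and -0.079 ± 0.30 with the tissue covariates (95% interval -0.77 to 0.61). Slc17a6, which marks the same thalamic neurons, was 10.59 on control 3. On acute 2, chronic 2 and acute 3, where Cacna1g was next highest at 8.77, 8.70 and 8.67, Slc17a6 was 6.54, 6.42 and 9.43. The part of thalamic tissue in these values was not tested beyond the fits given here.

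**Figure D4:**
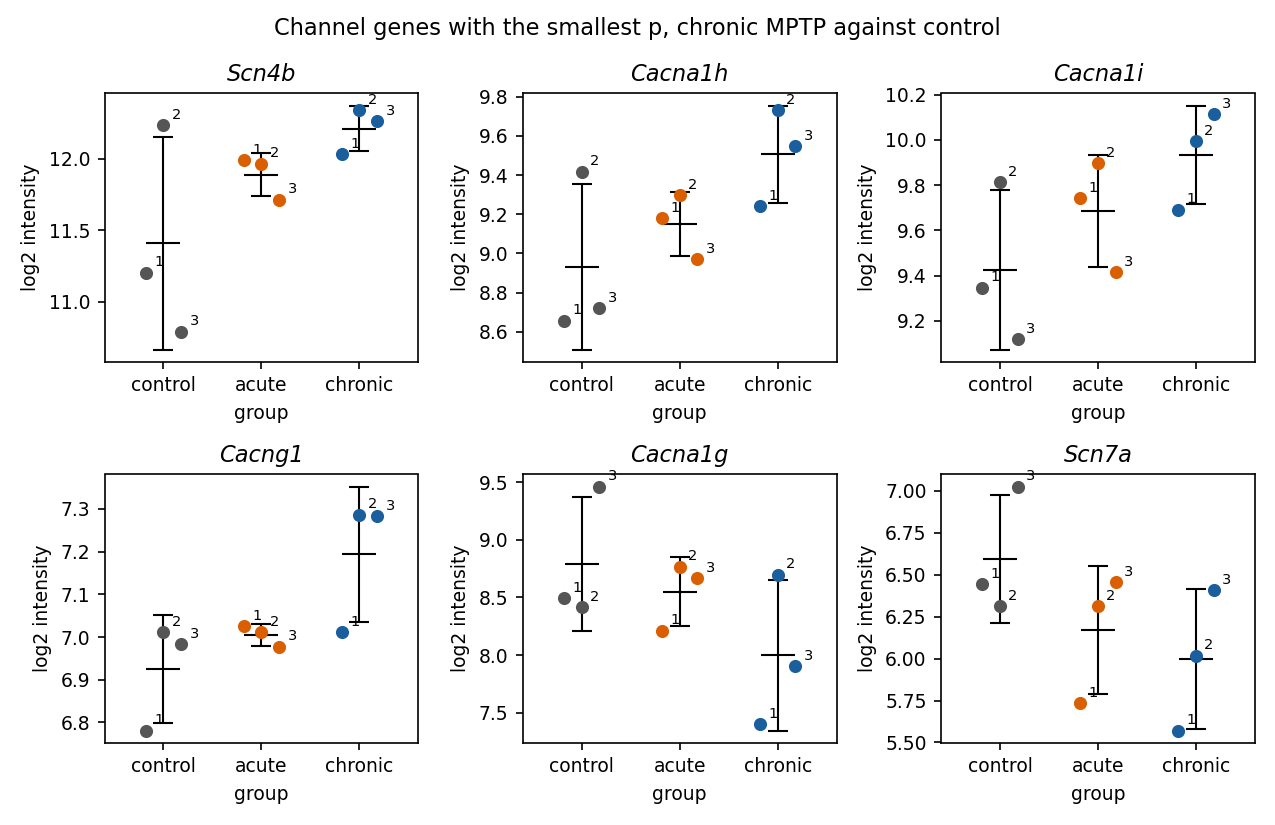
Log2 intensity of the 6 channel genes with the smallest unadjusted p for chronic MPTP against control, by group, with each point an array labelled by its replicate number, horizontal ticks for group means and bars for the SD (n = 3). In Scn4b, Cacna1h and Cacna1i control 2 stands apart from control 1 and control 3 and reaches the chronic arrays, and in Cacna1g and Scn7a control 3 stands above the other controls.

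None of the tested high-voltage-activated pores passed the adjusted threshold. Cacna1a, the P/Q-type channel of most fast synapses, lay at 10.13, 10.29 and 10.21 in the controls, at 10.17, 10.52 and 10.04 in the acute group and at 10.04, 10.44 and 10.59 in the chronic group, with both treated groups on either side of the controls. Cacna1c, the main L-type channel of the brain, lay at 9.21, 9.67 and 9.53 in the controls, at 9.51, 9.53 and 9.41 in the acute group and at 9.53, 9.80 and 9.89 in the chronic group. Control 1 was its lowest array, and chronic 2 and chronic 3 were its highest. It had the smallest unadjusted p of the channel genes for chronic against acute MPTP, 0.0949, at a difference of 0.25 ± 0.14 (adjusted p = 0.877 in limma). Chronic against control its difference was 0.27 ± 0.14 (unadjusted p = 0.0795 and adjusted p = 0.926 in limma). With the replicate block in limma the unadjusted p was 0.0368 and the adjusted p 0.36.

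Cacna1d, the L-type channel that contributes to pacemaking in dopamine neurons, was among the steadiest. It lay at 8.23, 8.08 and 8.02 in the controls, at 8.13, 8.09 and 7.90 in the acute group and at 8.09, 8.07 and 8.13 in the chronic group. The 95% intervals of its differences from control were -0.29 to 0.14 for the acute and -0.23 to 0.20 for the chronic group. Cacna1b and Cacna1e, the N-type and R-type pores, ranged over 0.51 and 0.93 on the 9 arrays, and Cacna1s, the pore of skeletal muscle, over 0.13.

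The alpha2delta subunits, of which the first and the second bind gabapentin, did not share a pattern. Cacna2d3 lay at 10.69, 10.78 and 9.90 in the controls, at 11.07, 10.62 and 10.47 in the acute group and at 11.07, 10.67 and 10.69 in the chronic group. Control 3 was its low array, and without it the acute difference of 0.26 ± 0.24 became -0.015 and the chronic difference of 0.36 ± 0.24 became 0.079. Cacna2d2 lay at 9.91, 10.60 and 10.68 in the controls, at 9.87, 10.31 and 10.31 in the acute group and at 10.28, 11.15 and 10.30 in the chronic group. Its highest array, chronic 2, was the lowest array of Cacna2d1, which ranged over 1.38. The chronic against acute difference of Cacna2d2 was 0.41 ± 0.28 (adjusted p = 0.878), and 0.12 without chronic 2.

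Among the calcium channel beta subunits, which bind the pore from inside the cell, all 3 tested genes lay above the controls on average in both comparisons, by 0.080 to 0.14 in the acute and 0.16 to 0.25 in the chronic group, and none passed. Both comparisons use the same controls. Cacnb4, mutated in the lethargic mouse, lay at 11.79, 11.67 and 11.57 in the controls, at 11.85, 11.78 and 11.72 in the acute group and at 11.80, 11.76 and 11.95 in the chronic group. Each of its treated arrays but acute 2, acute 3 and chronic 2 exceeded the highest control. Cacnb2 lay at 6.70, 6.70 and 6.34 in the controls, at 6.86, 6.76 and 6.54 in the acute group and at 6.70, 6.74 and 6.78 in the chronic group, with control 3 lowest.

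In the gamma family 6 of 7 genes lay above the controls on average at 8 weeks after chronic MPTP, with a median of 0.27 and a range from -0.30 to 0.39, and 0 passed. Cacng1, the gamma subunit of skeletal muscle, lay at 6.78, 7.01 and 6.98 in the controls, at 7.03, 7.01 and 6.98 in the acute group and at 7.01, 7.29 and 7.28 in the chronic group. Chronic 2 and chronic 3 stood above every other array and control 1 below. The chronic difference was 0.27 ± 0.10, or 1.20-fold (adjusted p = 0.898), and 0.25 ± 0.15 with the tissue covariates. Of 7 striated muscle genes 5 passed the filter, of which 3 lay lower and 2 higher in the chronic group, and the mean of that list ran from -0.047 to 0.11 in the controls and from -0.14 to 0.046 in the chronic group.

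Cacng4, a TARP, lay at 10.52, 11.09 and 10.72 in the controls, at 11.08, 11.05 and 10.74 in the acute group and at 11.07, 11.28 and 10.97 in the chronic group. As for Cacna1h, control 2 stood with the treated arrays. Cacng3, a TARP of forebrain neurons, lay at 11.36, 11.67 and 11.68 in the controls, at 11.61, 11.65 and 11.72 in the acute group and at 11.47, 11.73 and 11.99 in the chronic group. The groups covered overlapping ranges, and its differences from control were 0.089 ± 0.14 and 0.16 ± 0.14. Cacng1, Cacng4 and Cacng5 are neighbours, with 0 protein-coding genes between adjacent members, but Cacng5 was highest on control 3 and Cacng4 and Cacng1 on chronic 2.

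Chronic and acute MPTP, at equal total dose, did not differ in any channel gene past the adjusted threshold in limma (0 of 32, against 0.0122% of all probe sets), and 0 had an unadjusted p under 0.05, against 5.12% of all probe sets. Of the 32 differences 22 were above 0 (68.8%, against 45.7% of all genes), with a median of 0.071, against -0.015 over all genes, and a range from -0.55 to 0.41. Groups did not overlap for 2 genes, Scn2a and Scn4b, both higher in the chronic group, while 8.63% of all probe sets had groups that did not overlap. With the replicate number as a block 3 genes had an unadjusted p under 0.05 (Cacna1c, Cacna1h and Cacna2d2), at 13.9% of all probe sets, and the smallest adjusted p was 0.312. With the block and the tissue covariates together it was 6 (Cacna1a, Cacna1e, Cacna2d2, Cacng5, Scn1a and Scn2a), at 12.2%. Without chronic 1 the count was 3 (Cacna1c, Cacng1 and Cacng7), at 8.45% of all probe sets. It was 1 without chronic 2 (Cacna1g, 6.16%) and 1 without control 2 (Cacna1h, 4.67%).

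Genes that work with these channels were read from a list of partners of each channel and a list of voltage-gated potassium channels. In limma 0 of 10 sodium channel partners, 0 of 12 calcium channel partners and 0 of 14 potassium channels passed in any comparison. Chronic against control their median log2 differences were 0.082, 0.016 and 0.093. Fgf11, of the fibroblast growth factor homologous factors that bind sodium channels inside the cell, lay at 8.29, 8.96 and 8.55 in the controls, at 8.53, 8.75 and 8.78 in the acute group and at 8.96, 9.51 and 9.52 in the chronic group. Every chronic array lay above every other array, though chronic 1 was only just above control 2. The difference from control was 0.73 ± 0.20 (adjusted p = 0.876) and from the acute group 0.65 ± 0.20 (adjusted p = 0.877), and with the tissue covariates the difference from control was 0.57.

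Kcnc4, a fast-deactivating potassium channel, lay at 8.55, 8.22 and 8.77 in the controls, at 8.22, 8.46 and 8.22 in the acute group and at 7.68, 7.80 and 8.07 in the chronic group. Its chronic arrays lay below all others, by -0.67 ± 0.16 from the controls (adjusted p = 0.876) and -0.46 ± 0.16 from the acute group (adjusted p = 0.877). With the tissue covariates these were -0.35 and -0.21. Between chronic and control 6.55% of all probe sets had groups that did not overlap, 2.88% with the chronic group higher and 3.67% with it lower.

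At 1 week after acute MPTP the partners with the smallest unadjusted p were a pair of A-type potassium channels. Kcna4 lay at 8.38, 9.06 and 8.53 in the controls, at 9.06, 9.01 and 9.04 in the acute group and at 9.03, 9.11 and 9.64 in the chronic group. Control 2 again stood with the treated arrays. Kcnd2 lay at 11.20, 11.52 and 11.28 in the controls, at 11.72, 11.41 and 11.58 in the acute group and at 11.67, 11.39 and 11.68 in the chronic group. The acute differences from control were 0.38 ± 0.20 and 0.24 ± 0.13, each with adjusted p = 1 in limma.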

How the data were processed

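Log2 intensities of probe sets were used as deposited. Their scale was read from the values: the arrays ran from 4.27 to 4.31 at the lowest and had medians from 6.85 to 6.90, and background correction, normalization and summary are not given in the sources used here. Labelled cDNA was made with the Ambion WT Expression kit, per the labels' protocols. Of 28815 probe sets, 21780 had 1 symbol in the platform annotation, 1605 several and 5430 none, and 3 with several symbols that include a channel were left out. All 35 gene identifiers were found in the RefSeq table, which was used for names and gene order. Probe sets with 1 symbol and a mean at or above the 25th percentile were tested (16335).

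A mean per group was fitted to all 9 arrays with limma 3.58.1 in R 4.3.3 (eBayes, two-sided, Benjamini-Hochberg over all probe sets tested). Alternatives were no filter, a filter at the 50th percentile, quantile normalization, median centring, only the 2 groups compared, the replicate block, tissue covariates, both together, and leaving out arrays. The main fit has 6 residual degrees of freedom, from which the spread is estimated, and the fit with the block 4. The fit with block and covariates together has fewer still, so its counts and values are less certain. Arrays sharing a replicate number deviated together from their group means (r across probe sets from 0.16 to 0.67 over 9 pairs, against -0.61 to 0.18 for the other 18 pairs), so the block counts as a pairing, taken from the values and not from the labels. Up to 6.34% of values were identical between any 2 arrays. On simulated data for acute against control, with 200 of 16335 probe sets changed, 82.8% of changes of 1 on the log2 scale and 98.8% of changes of 2 were called. These shares are over all changed probe sets in that comparison only. The channel differences there, from -0.43 to 0.48, were smaller than the changes simulated, so the shares do not cover differences of that size. The channel genes spread more widely within groups (median SD 0.22, against 0.16 over all genes), so the shares may not hold for them.

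Single-array values are given for the 6 channel genes with the smallest p in each comparison and for Scn1a, Scn8a, Scn4b, Cacna1a, Cacna1c, Cacna1d, Cacna1g, Cacna2d3 and Cacng3, and for the 2 partner genes with the smallest p in each comparison. Scn2b, Scn3b and other channels appear by range only. The members, lists and this rule were chosen with earlier results of these data known.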

Additional observations from a re-analysis of the deposited data

How the results depend on the processing

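The count of channel genes past the adjusted threshold was 0 under every alternative run in all 3 comparisons, and none of the 22 genes named with values passed in any of them. The nearest was chronic against control without control 2, where the smallest adjusted p among the channel genes in limma was 0.0591, against 0.876 in the main fit. Leaving out control 1, acute 1 and acute 2, the cortex-rich arrays, keeps a lone acute array that is assumed to vary like the others, and the median of the channel genes was then -0.050 for acute against control and 0.16 for chronic against acute. Leaving out single arrays gave medians from -0.0059 (without control 1, with 14 genes above 0 in place of 20) to 0.074 for acute against control, from 0.071 to 0.19 for chronic against control and from 0.032 to 0.18 for chronic against acute. The covariates with the block gave -0.0023 for acute against control. The replicate block alone changed no adjusted call, and in this balanced design it cannot move a group difference, so the medians of 0.039, 0.16 and 0.071 are the same by construction. The count of 4 at an unadjusted p under 0.05 in chronic against control was 7 with quantile normalization (5.75% of all probe sets) and 2 with only the 2 groups fitted (3.88%). The cause of the changes in sign was not tested.

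For acute MPTP against control, these log2 differences turned in sign. With quantile normalization, the values were Scn2a 0.026. With the tissue covariates, the values were Cacna1g 0.048 and Scn8a -0.10. With covariates and replicate block, the values were Cacna1a -0.15, Cacna1c -0.060, Cacna1g 0.13, Cacna1i -0.020, Cacna2d2 0.10, Cacnb2 -0.0062, Cacnb4 -0.016, Cacng3 -0.0037, Scn8a -0.17 and Fgf11 -0.0055. Leaving out the cortex-rich arrays, the values were Cacna1a -0.20, Cacna1c -0.19, Cacna1h -0.096, Cacna1i -0.050, Cacng1 -0.020, Cacng4 -0.16, Scn1a 0.20, Scn2a 0.061 and Scn8a -0.10. Leaving out the choroid-rich arrays, the values were Cacna1g 0.036. Leaving out single arrays gave ranges of Cacna1a -0.098 to 0.14, Cacna1c -0.12 to 0.12, Cacna1g -0.43 to 0.096, Cacna2d3 -0.015 to 0.42, Cacng3 -0.017 to 0.14, Fgf11 -0.070 to 0.26, Scn1a -0.26 to 0.098, Scn2a -0.12 to 0.063 and Scn8a -0.099 to 0.15.

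For chronic MPTP against control, these log2 differences turned in sign. With median centring, the values were Cacna1d 0.0038. With the tissue covariates, the values were Cacna1d 0.0045, Cacna2d3 -0.081 and Kcnd2 -0.027. With covariates and replicate block, the values were Cacna1g 0.0080, Cacna2d3 -0.055 and Kcnd2 -0.057. Leaving out the cortex-rich arrays, the values were Cacna1d 0.048, Cacna2d2 -0.070 and Scn8a 0.038. Leaving out single arrays gave ranges of Cacna1d -0.061 to 0.048, Cacna2d2 -0.11 to 0.32, Scn1a -0.43 to 0.15 and Scn8a -0.21 to 0.038.

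For chronic against acute MPTP, these log2 differences turned in sign. With the tissue covariates, the values were Cacna2d3 -0.11, Cacng3 -0.025, Scn4b -0.15, Scn7a 0.013, Kcna4 -0.11 and Kcnd2 -0.23. With covariates and replicate block, the values were Cacna2d3 -0.14, Cacng4 -0.0021, Scn4b -0.071, Scn7a 0.12, Kcna4 -0.0009 and Kcnd2 -0.22. Leaving out the cortex-rich arrays, the values were Scn8a 0.14. Leaving out the choroid-rich arrays, the values were Cacna1d -0.014, Cacna2d3 -0.030, Cacnb2 -0.071 and Scn1a 0.080. Leaving out single arrays gave ranges of Cacna1a -0.0037 to 0.27, Cacna1d -0.014 to 0.10, Cacna2d3 -0.036 to 0.27, Cacnb2 -0.071 to 0.088, Cacng3 -0.061 to 0.20, Kcnd2 -0.074 to 0.10, Scn1a -0.34 to 0.24 and Scn7a -0.39 to 0.044.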
